A study of Homo sapiens with 42 samples.

Results

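Reciprocal chimeras of HIF-1α and HIF-2α were compared by poly-A RNA-seq in 786-O cells. The comparison rests on 6 of the 42 libraries of the series, taken by their labels: 3 of the line with the HIF-1α/2α chimera and 3 of the line with HIF-2α/1α. HIF-1α/2α joins residues 1 to 363 of HIF-1α, its structured part, to residues 366 to 870 of HIF-2α, its long intrinsically disordered region (IDR). HIF-2α/1α joins residues 1 to 365 of HIF-2α to residues 364 to 826 of HIF-1α, so that the proteins differ in both parts at once. Both are V5-Halo fusions, tagged at the N terminus, that a weak L30 promoter drives from a stably integrated transgene in WT 786-O cells selected with puromycin. 786-O is a clear cell renal carcinoma line that lacks functional VHL and functional HIF-1α, and its own HIF-2α gene is kept in all lines. Each chimera was measured in 1 stable line, so an effect of the protein and a property of the line cannot be told apart. The other 9 libraries of the same batch were WT cells and the lines with full-length HIF-1α or HIF-2α, built in the same way, 3 of each. The full-length pair exchanges the IDR in the same direction as the chimera pair (HIF-2α IDR against HIF-1α IDR) and the structured part in the opposite direction, and it shares no library with the chimeras.

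HIF-α subunits pair with HIF-1β, the product of ARNT, through their bHLH and PAS domains, and the dimer binds hypoxia response elements with the core letters RCGTG. The IDR that follows holds the residues that VHL recognises after hydroxylation and the transactivation domains. In cells without VHL both isoforms escape degradation in normal oxygen. HIF-1α is best known for glycolytic genes, and in renal carcinoma HIF-2α is best known for VEGFA, CCND1 and TGFA.

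The chimera libraries held 76366799 to 108727279 counted reads. Markers of this carcinoma were present in all 6 libraries, with PAX8 at 21313 to 31671 normalised counts (reads divided by the library's relative TMM-scaled size). Genes of other cell types were near 0, except LUM, a matrix proteoglycan, at 25.7 to 73.6 in HIF-2α/1α and 0 to 10.7 in HIF-1α/2α. Replicate 3 of HIF-2α/1α stood apart in 8 genes that were at least 10-fold above every other library, 6 of them small RNAs such as RNU4-2 and SNORD3A. By Euclidean distance over log2 CPM of all genes tested, the chimera lines lay 152 to 165 apart, against 119 to 127 between libraries of 1 chimera line. HIF-1α/2α lay 135 to 145 from HIF-2α and 149 to 158 from HIF-1α. HIF-2α/1α lay 120 to 132 from HIF-1α and 141 to 153 from HIF-2α. Each chimera was therefore nearer to the full-length line with its own IDR, and these ranges did not overlap.

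Reads of a transgene fall on the gene it came from, so HIF1A and EPAS1, the gene of HIF-2α, hold reads of each chimera together with those of the cell's own gene. HIF1A (ENSG00000100644.17, chr14:61695513-61748259) had 10216, 9675 and 8949 normalised counts in HIF-1α/2α and 9588, 9450 and 9518 in HIF-2α/1α, against a mean of 293 ± 26.2 (SD, n = 3) in WT cells. The chimera libraries overlapped, and the log2 difference was 0.02 ± 0.0667 (SE, adjusted p = 0.904, edgeR's quasi-likelihood test). EPAS1 (ENSG00000116016.14, chr2:46293667-46386697) had 51948, 53174 and 47259 in HIF-1α/2α and 21716, 20561 and 19267 in HIF-2α/1α, without overlap. That was 2.48-fold more in HIF-1α/2α (log2 1.31 ± 0.0561, adjusted p = 2.28e-23).

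The chimeras take stretches of different length from each gene, so the excess over WT cells was also divided by the number of codons taken. For HIF1A it was 25.7 ± 1.75 normalised counts per codon in HIF-1α/2α (363 codons) and 19.9 ± 0.149 in HIF-2α/1α (463 codons). For EPAS1 it was 75.6 ± 6.18 in HIF-1α/2α (505 codons) and 21.7 ± 3.36 in HIF-2α/1α (365 codons; SD, n = 3 throughout). EPAS1 was also above WT, at 16350, in the full-length HIF-1α line, which carries no EPAS1 transgene. Taken over that level, an alternative chosen after seeing the data, the EPAS1 excess was 68.2 ± 6.18 in HIF-1α/2α and 11.4 ± 3.36 in HIF-2α/1α. EPAS1 reads per codon were the higher in HIF-1α/2α over either level. Both parts of a chimera lie on 1 transgene, but within HIF-1α/2α the excess over WT was 25.7 for HIF1A and 75.6 for EPAS1. In HIF-2α/1α it was 19.9 and 21.7, with 11.4 for EPAS1 over the other level. The EPAS1 excess in HIF-1α/2α therefore cannot be read as the level of the chimera transcript alone, and its source was not tested. Endogenous and transgene reads of EPAS1 cannot be told apart, and protein levels were not measured here.

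Between the chimeras 703 genes were higher in HIF-1α/2α and 734 were lower, of 28684 tested, which is 2.45% and 2.56%, or 5.01% in all. A gene was called at an adjusted p of at most 0.01 and a fold of at least 2. Of these 1437 genes, 1412 showed no overlap between the 3 libraries of each chimera. The calls rest on these same libraries, so this count adds no support to them. The share without overlap over all genes tested was not counted. The full-length pair gave 1082 calls (3.77%). Of the chimera calls, 524 were called in the same direction between full-length HIF-2α and HIF-1α, 234 higher and 290 lower, so these followed the IDR. Another 34 were called in the opposite direction, following the structured part, and 879 were called between the chimeras only.

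Beyond the calls, the full-length log2 difference had the same sign for 512 of the 703 higher genes (72.8%) and 644 of the 734 lower genes (87.7%). Its median was 0.62 over the higher and -0.95 over the lower genes, beside chimera medians of 1.87 and -1.76 and a full-length median of 0.00 over all genes tested. The share with the same sign over all genes tested was not counted. Across the 1437 called genes, which are not independent replicates, Pearson's r between the chimera and the full-length log2 difference was 0.65. Over all 14036 genes with a mean of at least 50 in the chimera libraries it was 0.585, so the called genes were not far from the general value. Spearman's rho was 0.651 and 0.452.

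The level of each chimera was also set beside the lines it was built from. Of the 978 called genes with a mean of at least 50 normalised counts, 771 (78.8%) had HIF-1α/2α nearer to HIF-2α and HIF-2α/1α nearer to HIF-1α on the log2 scale. For 159 genes (16.3%) each chimera was nearer to the full-length line with its own structured part. Against WT cells, 278 of the 516 higher genes were at least 2-fold up in HIF-1α/2α while HIF-2α/1α stayed within 2-fold of WT. Of the 462 lower genes, 258 were at least 2-fold down in HIF-1α/2α with HIF-2α/1α within 2-fold of WT, and 76 were at least 2-fold up in HIF-2α/1α with HIF-1α/2α within 2-fold. On both sides, most of the genes stood away from WT in the HIF-1α/2α line rather than in the HIF-2α/1α line.

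**Figure D1:**
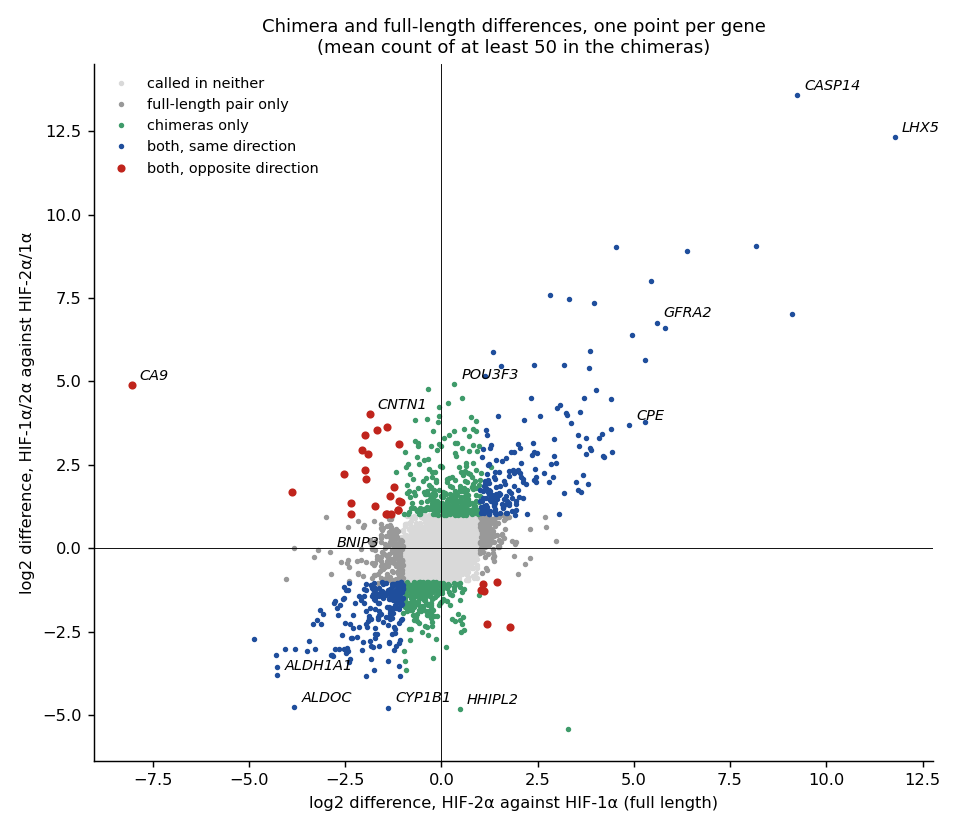
Log2 difference between the chimeras (vertical axis) against that between the full-length lines (horizontal axis), 1 point per gene with a mean of at least 50 normalised counts in the chimera libraries. Genes called in both contrasts lie mostly along the rising diagonal, and the red genes, CA9 farthest out, were called in opposite directions.

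The genes that the study had used to show isoform-specific activation are not independent of these libraries, and their values are given as a description. HSD3B7, an enzyme of bile acid synthesis (ENSG00000099377.14, chr16:30985207-30989147), had 4335, 4217 and 4182 normalised counts in HIF-1α/2α and 492, 546 and 466 in HIF-2α/1α. WT cells had 543, so HIF-2α/1α stayed at the WT level and HIF-1α/2α was 8.45-fold higher (log2 3.08 ± 0.0842, adjusted p = 1.51e-30). CPE, the carboxypeptidase of secretory granules (ENSG00000109472.14, chr4:165361194-165498547), had 14657, 14638 and 12398 in HIF-1α/2α and 1074, 1177 and 994 in HIF-2α/1α. The groups lay far apart, 12.8-fold (log2 3.68 ± 0.0856, adjusted p = 2.93e-33), and full-length HIF-2α was higher still, at 26476. PLXNA2, a semaphorin coreceptor, had 7036, 7239 and 5886 in HIF-1α/2α and 1282, 1272 and 1322 in HIF-2α/1α. These are the levels of the full-length lines, 6949 with HIF-2α and 1300 with HIF-1α.

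Another 3 genes of this set ran the other way. PPFIA4, a liprin of the presynapse (ENSG00000143847.15, chr1:203026491-203078740), had 338, 254 and 284 in HIF-1α/2α and 2625, 3291 and 2412 in HIF-2α/1α, without overlap. It was 9.43-fold lower in HIF-1α/2α (log2 -3.24 ± 0.121, adjusted p = 1.51e-25). GPRC5C, an orphan receptor, had 91.1, 143 and 111 in HIF-1α/2α and 655, 688 and 403 in HIF-2α/1α, again without overlap (log2 -2.35 ± 0.199). PTPRN, a granule membrane protein (ENSG00000054356.14, chr2:219289623-219309648), was near the detection floor of 3 counts in HIF-1α/2α, with 0.82, 0 and 2.14, against 57.3, 48.6 and 22 in HIF-2α/1α. Its pooled reads gave a level 42.9-fold higher in HIF-2α/1α, with a 95% counting interval of 14.4 to 211. Full-length HIF-1α had 195, and the mean of both chimeras on the log2 scale lay below that of the full-length lines by -2.14, which was called.

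The remaining genes of this set did not pass. PGK1, a glycolytic kinase, had 101584 ± 1059 in HIF-1α/2α and 89836 ± 3718 in HIF-2α/1α (SD, n = 3), a 1.13-fold difference, although full-length HIF-1α was at 178406 and HIF-2α at 69815. TGFA, an EGF receptor ligand, had 62072, 57272 and 47466 in HIF-1α/2α and 30349, 29914 and 28420 in HIF-2α/1α. The libraries did not overlap, but the fold of 1.88 was under the threshold (log2 0.91); without replicate 3 of HIF-1α/2α the log2 difference was 1.01 and the gene was called.

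**Figure D2:**
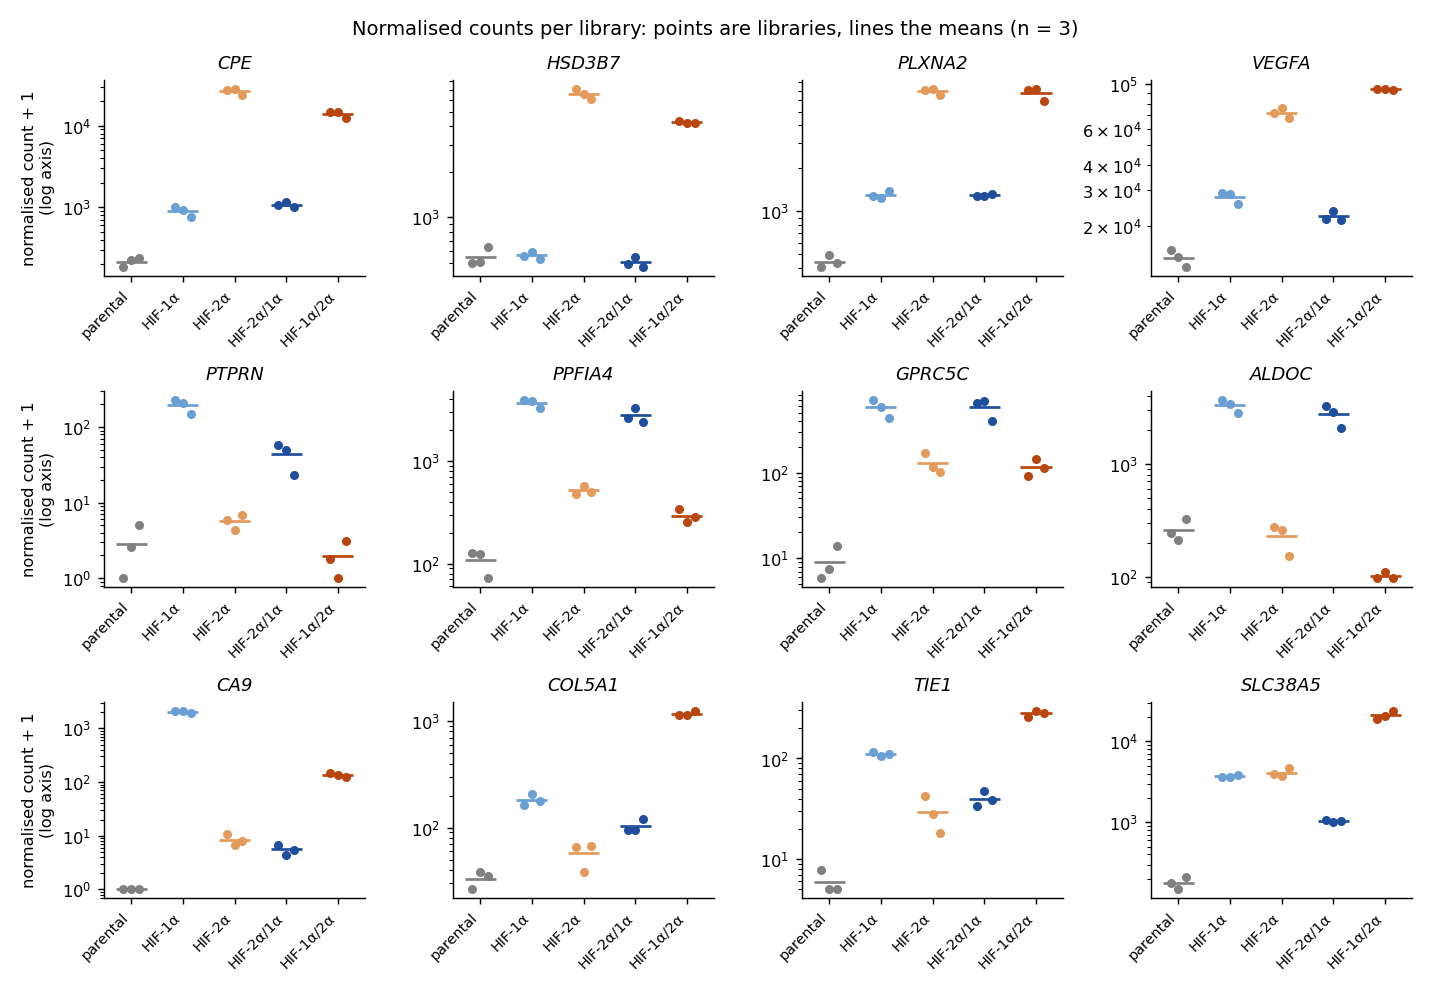
Normalised counts plus 1 on a log axis for 12 genes in the 15 libraries, as points, with the mean of each line (n = 3; WT cells are marked parental). In the top row the line with the HIF-2α IDR is the higher of each pair, and in the middle row that with the HIF-1α IDR. Levels can still differ: CPE in HIF-1α/2α and PTPRN in HIF-2α/1α lie below the full-length line with the same IDR. CA9, COL5A1 and TIE1 are higher with the HIF-1α structured part in both pairs, and SLC38A5 differs between the chimeras only.

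Of the 12 genes highest in HIF-1α/2α, all but GFRA2 had at most 10.5 normalised counts in any HIF-2α/1α library. Among called genes with a mean of at least 50 and no overlap, the 12 with the largest difference had log2 values of 6.61 to 13.57. All 12 were also called higher in full-length HIF-2α than in HIF-1α. CASP14, a caspase of the differentiating epidermis (ENSG00000105141.6, chr19:15049480-15058293), had 5792, 5662 and 5466 normalised counts in HIF-1α/2α and 0, 0 and 1.1 in HIF-2α/1α. With 1 read in all of HIF-2α/1α, the ratio of 16617 had a 95% counting interval of 2982 to 656361. Full-length HIF-2α gave 266, well under the chimera that carries its IDR.

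LHX5, a homeobox factor of the developing forebrain, had 3607, 4297 and 4377 in HIF-1α/2α and 0, 0 and 2.2 in HIF-2α/1α. Full-length HIF-2α had 434 and full-length HIF-1α none. LHX5-AS1, its overlapping antisense neighbour, ran with it at 207, 282 and 250 against 1.17, 0 and 0, and because strand was ignored in counting the reads of both cannot be fully separated. Neither gene had a structured-domain effect that was called, but both were at the floor in full-length HIF-1α and in HIF-2α/1α. The log2 differences of both pairs rest on that floor, so this test could not decide.

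SFRP2, a secreted Wnt modulator, had 558, 534 and 697 against 0, 0 and 3.3. Its 3 reads in HIF-2α/1α gave a ratio of 583 (95% counting interval 199 to 2827). SH2D1B, an adaptor best known from natural killer cells, had 1490, 1166 and 922 against 1.17, 1.71 and 4.39. GFRA2, a coreceptor for neurturin, was the only gene of the 12 with more than 100 normalised counts in HIF-2α/1α, at 16633, 16299 and 14883 against 147, 155 and 137. It was 108-fold higher (log2 6.76 ± 0.103, adjusted p = 1.01e-39), and full-length HIF-2α reached 14052.

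DOC2A, a calcium sensor of vesicle release, had 313, 334 and 415 in HIF-1α/2α and 1.17, 1.71 and 2.2 in HIF-2α/1α, and WT cells had 12. SYN3, a synapsin, had 298, 281 and 274 against 2.34, 0 and 4.39. TIMP3, the metalloprotease inhibitor that lies within SYN3 on the other strand, had 424, 532 and 434 against 4.67, 6.82 and 4.39, so both genes of this locus were high in the same libraries. H19, the imprinted long non-coding RNA, had 102, 126 and 195 against 0, 1.71 and 0. The 3 other genes of the 12, AC027128.1, AC079466.1 and AC005906.2, are long non-coding RNAs with means of 118, 1365 and 143 in HIF-1α/2α and 0.284, 8.42 and 1.22 in HIF-2α/1α.

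The 12 genes with the largest decrease had log2 values of -4.82 to -3.38, and 10 of them were also called lower with full-length HIF-2α. CYP1B1, a cytochrome P450 of oestrogen and retinoid oxidation (ENSG00000138061.12, chr2:38066973-38109902), had 260, 294 and 239 in HIF-1α/2α and 6674, 8660 and 6413 in HIF-2α/1α. WT cells had 9703, so HIF-2α/1α was near the WT level and HIF-1α/2α 27.5-fold below HIF-2α/1α (log2 -4.78 ± 0.115, adjusted p = 1.04e-32). CYP1B1-AS1 overlaps it on the other strand and had 13.3 ± 8.45 against 146 ± 37.3. ALDH1A1, a retinal dehydrogenase (ENSG00000165092.13, chr9:72900671-73080442), had 437, 493 and 614 against 7417, 6882 and 7136. Its levels were close to those of the full-length lines, 411 with HIF-2α and 7996 with HIF-1α.

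ALDOC, the brain aldolase of glycolysis (ENSG00000109107.14, chr17:28573115-28576948), had 97.6, 110 and 96.2 in HIF-1α/2α and 3256, 2864 and 2081 in HIF-2α/1α. HIF-2α/1α reached the level of full-length HIF-1α, 3291, from 258 in WT cells, and the chimeras differed 27-fold without overlap (log2 -4.75 ± 0.163, adjusted p = 6.23e-27). SPRY1, an inhibitor of receptor tyrosine kinase signalling, was likewise highest in the lines with the HIF-1α IDR, with 28.7, 11.7 and 16 against 237, 216 and 245 and 4.84 in WT cells. EREG, an EGF receptor ligand, was below WT in both chimeras. It had 1065, 988 and 981 in HIF-1α/2α, 9830, 10518 and 11915 in HIF-2α/1α and 22407 in WT cells.

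HHIPL2, a relative of the hedgehog-binding protein HHIP, had 14.8, 4.7 and 19.2 in HIF-1α/2α and 414, 427 and 292 in HIF-2α/1α. Full-length HIF-1α and HIF-2α had 222 and 305, beside the 209 of WT cells, so the gene was low in the HIF-1α/2α line alone. UPK1B, a urothelial tetraspanin, had 73, 58.7 and 40.6 against 707, 750 and 755. The other 5 genes were GASK1B, GPR15, ATOH8, GGT4P and the antisense gene above, with log2 differences of -3.84, -3.84, -3.63, -3.52 and -3.38. GGT4P is a pseudogene of a multigene family whose reads can be shared with its relatives.

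CA9, the membrane carbonic anhydrase that is a common marker of hypoxia, was the extreme among genes that went with the structured part (ENSG00000107159.13, chr9:35673928-35681159). It had 149, 132 and 121 normalised counts in HIF-1α/2α, 5.84, 3.41 and 4.39 in HIF-2α/1α and 0 in all WT libraries. The chimeras differed 29.6-fold (log2 4.89 ± 0.252, adjusted p = 6.77e-20). Full-length HIF-1α, with the same structured part and its own IDR, had 2047, and full-length HIF-2α had 7.49. The structured-domain effect, which is the mean of the 2 differences taken in the direction of the HIF-1α structured part and tests whether they differ, was 6.46 on the log2 scale (adjusted p = 9.78e-31). Over all genes 299 were called for this effect (1.04%), 203 higher with the HIF-1α structured part and 96 with that of HIF-2α. The mean of both chimeras on the log2 scale also lay below that of the full-length lines, by -2.34 (called). A gene on the other strand, ARHGEF39, overlaps CA9, and strand was ignored in counting.

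Of the 34 genes called in opposite directions, 27 were higher with the HIF-1α structured part in both pairs and 7 with that of HIF-2α. CNTN1, a neuronal adhesion protein, had 422, 362 and 477 in HIF-1α/2α and 22.2, 20.5 and 35.2 in HIF-2α/1α, against 108 with full-length HIF-1α and 29.8 with HIF-2α. COL5A1, a fibrillar collagen chain (ENSG00000130635.15, chr9:134641803-134844843), had 1134, 1150 and 1248 against 94.6, 92.9 and 119. In both genes HIF-1α/2α was the highest of all 5 lines, above the 181 of full-length HIF-1α in the case of COL5A1. HHIP, which binds hedgehog ligands, had 560 ± 43.1 against 53.8 ± 8.93, FAM174B had 1218 ± 15.5 against 98.6 ± 8.7, and NKX2-5, a cardiac homeobox factor, had 146 ± 48.5 against 45.5 ± 23.4 (SD, n = 3). The structured-domain effects of these 5 genes ran from 2.52 to 2.94 on the log2 scale.

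The letters before the starts of CA9, ALDOC and PPFIA4 are shown because these genes respond to HIF-1α and yet separate the chimeras in opposite ways, CA9 with the structured part and the others with the IDR. The windows are the bases before the RefSeq start (GRCh38.p14), 5′ to 3′ on the gene's strand, with ACGTG and GCGTG on either strand in capitals. They lie at chr9:35673678-35673927 on the plus strand (CA9), chr17:28576949-28577145 on the minus strand (ALDOC, without the last 53 bases, which GENCODE puts inside the gene) and chr1:203026241-203026490 on the plus strand (PPFIA4).
CA9: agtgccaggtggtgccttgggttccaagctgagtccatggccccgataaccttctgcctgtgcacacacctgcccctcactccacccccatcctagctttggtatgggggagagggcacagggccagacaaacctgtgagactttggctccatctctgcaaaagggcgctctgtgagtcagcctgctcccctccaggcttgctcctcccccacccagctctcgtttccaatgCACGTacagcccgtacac
ALDOC: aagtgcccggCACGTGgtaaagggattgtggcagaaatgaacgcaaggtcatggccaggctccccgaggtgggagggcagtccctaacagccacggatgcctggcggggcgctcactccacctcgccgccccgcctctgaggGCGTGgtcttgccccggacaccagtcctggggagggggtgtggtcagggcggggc
PPFIA4: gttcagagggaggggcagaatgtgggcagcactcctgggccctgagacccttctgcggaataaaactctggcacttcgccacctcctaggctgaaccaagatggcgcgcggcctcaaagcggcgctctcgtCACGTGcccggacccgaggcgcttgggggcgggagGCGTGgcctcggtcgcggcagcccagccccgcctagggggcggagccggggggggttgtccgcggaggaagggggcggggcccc

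The longer word TACGTG was found once before CA9, 18 bases upstream of the start, and once before ALDOC, 28 bases upstream of the RefSeq start and so in the stretch left out above, each on the strand opposite to the printed one.
CA9 site: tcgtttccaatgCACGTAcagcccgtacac
ALDOC site: ccccggaggagtCACGTAgctctgcgacat
The capitals here mark TACGTG read on the opposite strand. The same word therefore stands close to the start of a gene that was higher in HIF-1α/2α and of one that was lower. Over the 250 bases before the start, TACGTG was held by 2.9% of the 13534 promoters matched by symbol to a tested gene, by 2.88% of the 416 of higher genes and by 1.72% of the 464 of lower genes. ACGTG, which TACGTG contains, was held by 22.2%, 20% and 18.5%, and GCGTG by 41.9%, 34.6% and 35.1%. These shares describe letters only, and HIF sites outside the windows are not covered.

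Genes that differed between the chimeras but were not called between the full-length lines included several nuclear factors. Whatever their full-length call, 153 of the 703 higher genes (21.8%) had a called structured-domain effect towards HIF-1α and 3 towards HIF-2α. Of the 734 lower genes, 61 (8.31%) had one towards HIF-2α and 1 towards HIF-1α. Over all genes tested the shares were 0.708% towards HIF-1α and 0.335% towards HIF-2α. The effect contains the chimera difference by which these genes were called, so this lean is partly built in. POU3F3, a neural POU factor (ENSG00000198914.4, chr2:104853287-104858574), had 1700, 1556 and 1609 in HIF-1α/2α and 45.6, 62.2 and 51.6 in HIF-2α/1α. The full-length lines had 225 with HIF-1α and 283 with HIF-2α, in between, and the chimeras differed 30.2-fold (log2 4.91 ± 0.169, adjusted p = 6.09e-27). AUTS2, a Polycomb-associated regulator, had 1067, 1032 and 1039 against 33.9, 48.6 and 30.8. KLF8, a zinc finger factor, had 150, 230 and 160 against 3.51, 16.2 and 2.2.

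SLC38A5, a glutamine and serine transporter (ENSG00000017483.15, chrX:48458537-48470260), had 18855, 20684 and 23812 in HIF-1α/2α and 1068, 1015 and 1041 in HIF-2α/1α. With 3685 and 4075 the full-length lines did not differ by the threshold, and all 4 lines were above the 179 of WT cells. In this gene and in POU3F3 and AUTS2 the HIF-1α/2α line was the highest and HIF-2α/1α the lowest of the 4 transgene lines. KCNK6, a potassium channel, and TMEM63C, a member of a family of mechanosensitive channels, were the counterparts on the lower side beside HHIPL2 and UPK1B. KCNK6 had 89.4, 116 and 57.7 against 967, 864 and 891. TMEM63C had 11.5, 2.35 and 23.5 against 133, 159 and 82.4.

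HIF pathway genes and other groups were examined in 21 lists. They hold 501 different genes, of which 476 were tested, 57 called higher and 44 called lower. The count of each list is to be read beside the shares over all genes tested, 2.45% higher and 2.56% lower. In a short list, a count of 0 or 1 is near these shares. Among 23 common hypoxia targets 8 were higher in HIF-1α/2α and none lower by edgeR's test, with a median log2 difference of 0.49 beside 0.02 over all genes tested. Besides CA9 these were CA12, NDRG1, ANGPTL4, ANKRD37, DDIT4, ADM and HILPDA. CA12, also a membrane carbonic anhydrase, had 173563, 165152 and 146580 in HIF-1α/2α and 20682, 19784 and 20441 in HIF-2α/1α, a 7.98-fold difference (log2 3.00 ± 0.0588, adjusted p = 8.56e-36). NDRG1, a stress-induced growth suppressor, had 326155, 344748 and 301466 against 63628, 57347 and 46852. Both were also higher with full-length HIF-2α.

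BNIP3, a mitophagy receptor, was higher in the full-length HIF-1α line than in either chimera. It had 7503, 7677 and 7338 in HIF-1α/2α and 7960, 8114 and 8361 in HIF-2α/1α, close to the 7752 of WT cells, while full-length HIF-1α had 45076. The chimera difference was not called (log2 -0.12 ± 0.0516, adjusted p = 0.0952). PDK1, the kinase that restrains pyruvate dehydrogenase, had 2926 ± 218 in HIF-1α/2α and 2760 ± 144 in HIF-2α/1α (SD, n = 3), between the 1494 of WT cells and the 5207 of full-length HIF-1α, while full-length HIF-2α had 1476. Its log2 difference between the chimeras, 0.09, was not called.

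Glycolytic genes were called in both directions, and some of these differed widely. Of 26 genes of glycolysis and glucose use, 2 were higher (7.69%), 1 was lower (3.85%) and 23 were not called. The shares over all genes tested were 2.45% and 2.56%. The median log2 was 0.03, whereas 7 of the 26 were called lower and 2 higher with full-length HIF-2α (median -0.41). HK2, the inducible hexokinase, had 13253, 12890 and 11973 in HIF-1α/2α and 5405, 5059 and 4708 in HIF-2α/1α. It was 2.52-fold higher (log2 1.33 ± 0.0587), beside 4822 in WT cells. PPP1R3C, a glycogen-targeting phosphatase subunit, had 8137, 7851 and 6494 against 476, 502 and 505, 15.2-fold higher, and ALDOC was the lower one. SLC2A1, the glucose transporter GLUT1, had 240810 ± 8584 against 128869 ± 9767, a fold of 1.87 under the threshold.

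HIF-2-linked genes of renal carcinoma separated in both directions, with 7 of 19 tested higher and 2 lower and a median log2 of 0.91. VEGFA, the angiogenic growth factor (ENSG00000112715.22, chr6:43770184-43786487), had 95027, 94792 and 93234 in HIF-1α/2α and 21658, 23632 and 21364 in HIF-2α/1α. It was 4.25-fold higher (log2 2.09 ± 0.0585, adjusted p = 3.61e-30). CCND1, cyclin D1, had 93056, 96048 and 88103 against 42413, 40713 and 40748, a 2.24-fold difference. IGFBP3, the main carrier of IGFs, PLIN2, the lipid droplet coat protein, and CXCR4, the CXCL12 receptor, were higher with log2 differences of 2.25, 1.91 and 3.57. SCARB1, the HDL receptor, was at 1.13. The lower genes were the neighbouring EGF receptor ligands EREG and AREG, AREG with 48.4, 68.1 and 44.9 against 490, 423 and 682. For 8 of the 19 genes the full-length lines also gave a call higher with HIF-2α and for 2 a call lower.

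In the HIF system itself EPAS1 and EGLN3 were higher and the other 8 of 10 genes were not called. EGLN3, a prolyl hydroxylase that marks HIF-α and is itself a HIF target (ENSG00000129521.14, chr14:33924227-34462774), had 72505, 71430 and 63754 in HIF-1α/2α and 10794, 10268 and 8669 in HIF-2α/1α, 6.99-fold higher (log2 2.81 ± 0.0765). ARNT, the common partner, had 3527 ± 266 and 3326 ± 209 (SD, n = 3), libraries that overlapped (adjusted p = 0.364).

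**Figure D3:**
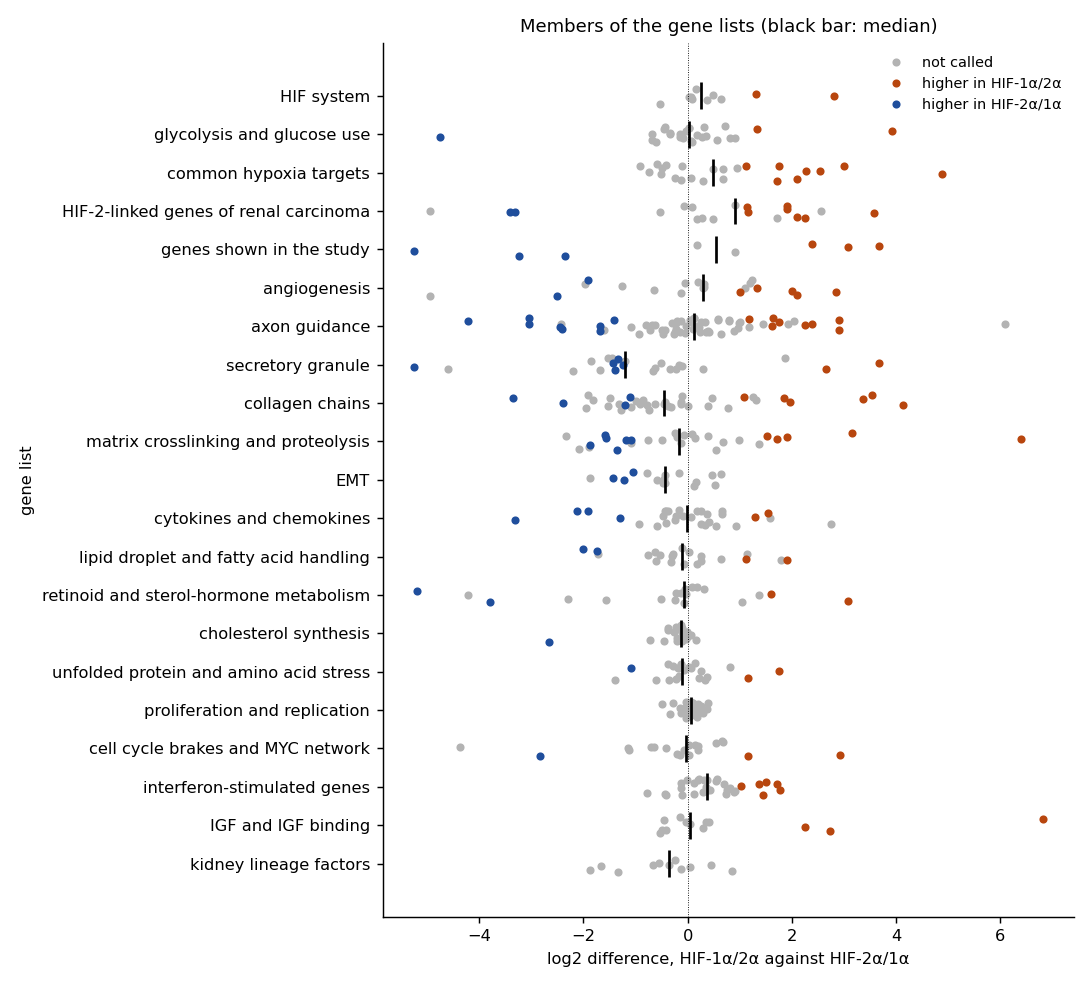
Log2 difference between the chimeras for the tested members of 21 gene lists, 1 point per gene, with the median of each list as a black bar. Common hypoxia targets and interferon-stimulated genes have called members on the right only, EMT genes on the left only, and proliferation genes and kidney lineage factors none. Over all genes tested 2.45% were higher and 2.56% lower, so no call in a short list is near the general share.

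Signalling genes split within their families. Of 20 tested genes of angiogenesis 5 were higher and 2 lower. TIE1, an endothelial receptor kinase, had 260, 296 and 284 in HIF-1α/2α and 32.7, 46 and 37.4 in HIF-2α/1α, and was lower with full-length HIF-2α (28.7) than with HIF-1α (111). PGF, a placental VEGF relative, had 982, 901 and 796 against 231, 231 and 208, and PDGFB was at log2 1.33. EDN1, the vasoconstrictor endothelin, was called at log2 1.01, but it lost its call without replicate 3 of HIF-1α/2α (0.81) or replicate 2 of HIF-2α/1α (0.82). PDGFRB, the receptor of PDGFB, was lower, with 28.7, 12.9 and 15 against 119, 119 and 94.5. Among 64 axon guidance genes 8 were higher and 8 lower (12.5% each), with a median log2 of 0.12. Over all genes tested the shares were 2.45% and 2.56%. The netrin NTN1 had 728 ± 80.3 against 96.7 ± 18.2 and the semaphorin SEMA5B 6475 ± 348 against 868 ± 257, whereas SEMA3F had 444 ± 67.2 against 3685 ± 586 and the netrin receptor UNC5B 43.4 ± 13.6 against 365 ± 56.9 (SD, n = 3).

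Secretory granule genes had a median log2 of -1.21, or -0.66 with genes that had no read in a chimera placed at their bound, and 10 of the 23 tested had a mean under 10. CPE and the calcium sensor SYT7 were higher, and PTPRN, RAB27B, CADPS2, RAB3A and SCG5 were lower. Tested against a fold of 2, 2 genes of this list were higher and 2 lower. SCG5, a chaperone of prohormone processing, had 222, 193 and 200 in HIF-1α/2α and 418, 621 and 410 in HIF-2α/1α, though full-length HIF-2α (747) was above HIF-1α (371). Of the retinoid and sterol-hormone genes, HSD3B7 and the retinol dehydrogenase RDH10 (log2 1.60) were higher. DHRS9, another retinol dehydrogenase, and ALDH1A1 were lower, DHRS9 with 0.82, 2.35 and 1.07 against 57.3, 64.8 and 38.4.

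Matrix genes moved in both directions. Of 37 tested collagen chains 6 were higher and 4 lower (median -0.45), and of 28 genes of matrix crosslinking and proteolysis 5 were higher and 6 lower. Tested against a fold of 2, the collagen counts were 5 higher and 2 lower, and those of the other list 4 and 1. COL6A3, a beaded filament chain, had 172512, 171848 and 134484 in HIF-1α/2α and 48205, 48189 and 36591 in HIF-2α/1α. COL12A1 had 1033 ± 127 against 263 ± 20.9, while COL4A1, of basement membranes, had 17367 ± 1298 against 39851 ± 3073 (SD, n = 3). FN1, fibronectin, had 239946, 240072 and 231651 against 523470, 504216 and 451194, 2.08-fold lower. FN1, TAGLN and S100A4, at log2 -1.05, -1.22 and -1.43, were the called members of 16 EMT genes, and none was higher by edgeR's test. All 3 lost their call in edgeR's test against a fold of 2 (adjusted p of 0.657, 0.48 and 0.367), which left 0 EMT genes called.

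Of 30 cytokines and chemokines 2 were higher (6.67%) and 4 lower (13.3%), beside 2.45% and 2.56% over all genes tested. The higher count was 4 without replicate 3 of HIF-2α/1α, 3 without replicate 1 of HIF-1α/2α and 1 without replicate 2 of HIF-2α/1α. TNFSF10, the death ligand TRAIL, had 52880, 45862 and 47350 against 17064, 17121 and 15860. IL18 had 63.2, 82.2 and 26.7 in HIF-1α/2α and 606, 518 and 599 in HIF-2α/1α, and CCL2, CCL5 and CSF1 had log2 differences of -2.13, -1.92 and -1.29. CCL20, the other higher member, had a log2 difference of 1.30 that lost its call without replicate 2 of either chimera (1.21 and 1.03).

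Interferon-stimulated genes were called in 1 direction only by edgeR's test, with 6 of 31 higher, none lower and a median log2 of 0.38. OAS1, an activator of RNase L, had 583, 807 and 1160 in HIF-1α/2α and 196, 236 and 315 in HIF-2α/1α. The groups did not overlap, although the libraries of HIF-1α/2α spread over a wide range (log2 1.77 ± 0.204). OAS2, IFI6 and HERC5 had log2 differences of 1.72, 1.44 and 1.36. IRF9, 2.82-fold higher, lost its call without any one of 5 chimera libraries (log2 values of 1.36 to 1.60), and MX1, at log2 1.02, lost it without replicate 3 of HIF-1α/2α (0.77) or replicate 1 or 2 of HIF-2α/1α (0.90 and 0.86). The higher count was 4 without any one of these 3 libraries, and 3 in edgeR's test against a fold of 2. The full-length lines gave a call for IFI6 only, higher with HIF-2α, among these 31 genes. Whether the lists differ between the pairs of lines was not tested.

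No gene of 30 for proliferation and replication was called between the chimeras in either direction (median log2 0.05). Over all genes tested 2.45% were higher and 2.56% lower. In a list of this length a count of 0 is near these shares. Of 23 cholesterol synthesis genes 1 was called, lower (4.35%), and 22 were not called (median log2 -0.13). In the list of cell cycle brakes and the MYC network, the inhibitor CDKN1C had 73, 77.5 and 104 against 5.84, 6.82 and 20.9, and MYCL, a MYC paralogue, had 18.1, 20 and 18.2 against 159, 139 and 107. None of 11 kidney lineage factors was called by edgeR's test (median log2 -0.35), which is again near the shares over all genes. Of the IGF genes INSR, the insulin receptor, had 34.5, 57.6 and 66.3 normalised counts in HIF-1α/2α and 0, 0 and 1.1 in HIF-2α/1α. Its ratio of 150 rests on 1 read in HIF-2α/1α (95% counting interval 26.5 to 5948), and WT and both full-length lines were near 0 as well. IGFBP5 was at log2 2.74. The lipid droplet list had 2 higher and 2 lower of 21 (9.52% each). The list for unfolded protein and amino acid stress had 2 higher (9.09%), DDIT4 and TRIB3, and 1 lower (4.55%) of 22. The lower gene, CHAC1, at log2 -1.09, lost its call without replicate 3 of HIF-1α/2α (-0.90), which left 0 lower.

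Both chimeras could also depart together from the full-length lines, and 111 genes (0.387%) were called for this, 27 higher in the chimeras and 84 lower; without replicate 2 of HIF-1α/2α 16 were higher. GLUL, glutamine synthetase (ENSG00000135821.18, chr1:182378098-182392206), had 859, 860 and 1022 in HIF-1α/2α, 14, 24.7 and 37.4 in HIF-2α/1α, 24.6 with HIF-1α and 53.9 with HIF-2α. Its rise thus came from HIF-1α/2α alone. PTGIS, prostacyclin synthase, had 6.26 ± 4.19 in HIF-1α/2α and 50.5 ± 18 in HIF-2α/1α, both under the 183 of HIF-1α and the 119 of HIF-2α. RNASE1, a secreted ribonuclease, and GRIN2A, a glutamate receptor subunit, also had lower means over the chimeras than over the full-length lines, with log2 effects of -2.53 and -2.40. SNORD3A, named by the same rule, had 88.8, 50.3 and 2016 in HIF-2α/1α, and 108, 77.5 and 87.7 in HIF-1α/2α. Its difference between the chimeras, log2 -2.96, rested on replicate 3 of HIF-2α/1α and turned to 0.41 without it.

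Genes on chromosome 14 were shifted as a body. Over 442 of them with a mean of at least 50, the median log2 difference between the chimeras was 0.42, and 88.7% lay above 0, whereas the medians of the other chromosomes ran from -0.15 to 0.17. In the full-length pair the chromosome 14 median was 0.00. Set against WT cells, it was 0.40 in HIF-1α/2α and -0.01 in HIF-2α/1α, so the shift was in the HIF-1α/2α line. Of the 897 chromosome 14 genes tested, 39 were called higher (4.35%) and 15 lower (1.67%). HIF1A, EGLN3, PGF, IRF9, TMEM63C and RNASE1 lie there, and the part of the shift in their values was not tested. With chromosome 14 left out, 664 genes were higher and 719 lower, an alternative chosen after seeing the data.

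**Figure D4:**
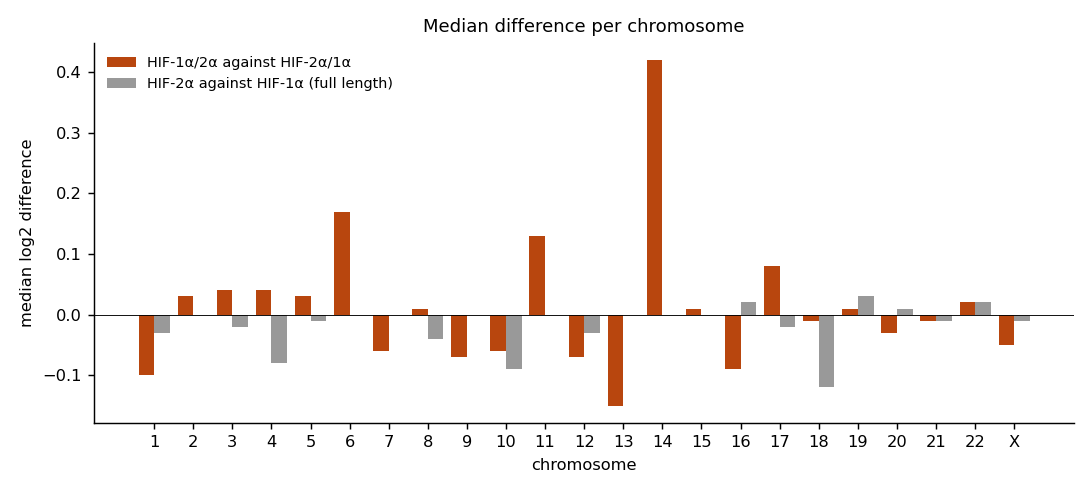
Median log2 difference per chromosome for genes with a mean of at least 50 normalised counts, between the chimeras (orange) and between the full-length lines (grey). Chromosome 14 stands at 0.42 in the chimera comparison and at 0.00 in the full-length one.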

How the data were processed

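Poly-A RNA-seq libraries of the second batch were used, 15 in all, and the 27 libraries of the other batch were not used here. The authors deposited raw counts per gene: STAR alignment to hg38 was followed by HTSeq counting of unique alignments (union mode, strand ignored) over GENCODE genes. Reads shared by paralogues or overlapping genes were therefore lost or not resolved. RNA of this batch was extracted with TRIzol; the study has 3 replicates per line and describes them as biological.

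Counts were fitted with edgeR 4.0.16 (quasi-likelihood test, TMM factors of 0.96 to 1.03, 1 model for all 15 libraries, R 4.3.3), for 28684 genes with a mean normalised count of at least 0.5. The study's thresholds were used for calls, a fold no smaller than 2 together with a p-value, adjusted by Benjamini-Hochberg, no larger than 0.01. The structured-domain effect averages the chimera difference and the full-length difference, the latter taken as HIF-1α minus HIF-2α; the IDR effect averages both as HIF-2α IDR minus HIF-1α IDR. Levels under 3 counts were taken as the floor, and ratios on so few reads have exact 95% intervals that cover counting error only. Distances were taken on log2 CPM (prior count 2), and levels near full-length or WT lines used log2 of the mean plus 1. Chromosome positions came from GENCODE release 44.

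Named genes were the 12 with the largest change in each direction among called genes with a mean of at least 50 and no overlap, members of the lists, up to 6 called in opposite directions, and up to 4 per direction with a structured-domain effect only or a chimera-against-full-length effect. Some list members are not reported here. RNU4-2 was named after its values were seen. The comparison, the members and the lists were chosen with earlier results of these data known. The script was tested on simulated data. Alternatives were DESeq2 1.42.0, RLE size factors, other count filters, fits of only the groups compared, a replicate block, edgeR's test against a fold of 2, and leaving out each chimera library.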

Additional observations from a re-analysis of the deposited data

Results flagged for a closer look

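In the genes below, the difference between the chimeras and that between the full-length lines were tested against each other by the structured-domain effect, in edgeR's quasi-likelihood fit, and found to differ (log2 scale). A positive value means a higher mean over the lines with the HIF-1α structured part. It can come from 1 line alone, as with INSR and GLUL, high in HIF-1α/2α only, and HHIPL2, low there only. CA9 had the largest effect among the named genes, at 6.46. CNTN1, NKX2-5, HHIP, COL5A1 and FAM174B, which were called in opposite directions in the pairs, had 2.94, 2.79, 2.69, 2.60 and 2.52, and TIE1 2.38. Genes that differed between the chimeras without a call between the full-length lines had 2.29 (POU3F3), 2.56 (AUTS2), 1.98 (KLF8), 2.09 (SLC38A5), 1.58 (PPP1R3C), 1.42 (ANKRD37), 1.09 (NTN1), 1.56 (SYT7) and 3.31 (INSR, on few reads).

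In SFRP2, DOC2A, AC079466.1 and GLUL both pairs were called in the same direction, but the chimera difference was the larger, with structured-domain effects of 2.25, 2.39, 1.70 and 2.01. On the lower side the same held for CYP1B1 (-1.70), GPR15 (-1.38) and GGT4P (-1.21). HHIPL2, UPK1B, KCNK6, TMEM63C, PTGIS and UNC5A were lower between the chimeras only, with effects of -2.65, -1.36, -1.21, -1.54, -1.19 and -1.65. SCG5 had -1.13 and was called in opposite directions in the pairs. BNIP3 (1.39) differed between the full-length lines only, and RNASE1 (-1.22) was not called between the chimeras. HIF1A had 1.92, which reflects the transgenes. SNORD3A had -1.54, a value set by replicate 3 of HIF-2α/1α.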

How the results depend on the processing

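Tested against a fold of 2, a stricter test, the calls fell to 338 higher and 288 lower between the chimeras, 204 and 219 between the full-length lines, 50 and 9 for the structured-domain effect, 257 and 264 for the IDR effect (546 and 720 otherwise), and 3 and 6 for chimeras against full length; 218 genes were then called in both contrasts in the same direction and 8 in opposite directions. With no filter on low counts, 42 genes were higher in the chimeras than in the full-length lines, beside 27. Leaving out 1 chimera library gave 639 to 705 higher and 660 to 723 lower genes between the chimeras, 396 to 453 and 532 to 608 between the full-length lines, 187 to 212 and 78 to 102 for the structured-domain effect, 509 to 589 and 680 to 721 for the IDR effect, 16 (without replicate 2 of HIF-1α/2α) to 28 and 72 to 88 for chimeras against full length, 491 to 521 and 28 to 35 for genes called in both contrasts, and 54 to 60 and 42 to 45 list members. In the same fits the log2 difference of HIF1A ran from -0.03 (without replicate 1 of HIF-1α/2α) to 0.06, and that of SNORD3A from -3.51 to 0.41 (without replicate 3 of HIF-2α/1α).

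Replicate numbers are shared between lines, but deviations of same-numbered chimera libraries correlated at only -0.0841, -0.01 and 0.0653, and 2 of 6 libraries correlated best with their own number. In the full-length pair the values were 0.0643, 0.12 and 0.175, with 5 of 6, a hint from the data. Since not all exceeded 0.1, the numbers were not taken as a pairing. With a replicate block 733 genes were higher and 772 lower between the chimeras, and no count of calls moved by over 1.5 times. DESeq2, RLE size factors, a mean count of at least 10 and fits of only the groups compared kept the chimera counts within 1.5 times, while MMP1 and MX1 lost their call in DESeq2, which gave no adjusted p for SNORD3A.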
